A study of Mus musculus with 4 samples.

Results

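The mouse genes Fam25c, Ptn, Glul, AW112010 and Qsox1 were followed across the epithelial cell classes of MMTV-PyMT mammary glands and tumors. They are 5 of the 31781 genes with a row in any of the 4 count tables. They were chosen from the same libraries, because each had a higher level in PKA hyperplasia than in WT hyperplasia over all cells and because they had been seen mostly in Mature Luminal cells. Those values are therefore given below as a description, and the tumor libraries, which the choice did not use, are described beside them. Among the 1740 genes compared over all cells of the hyperplastic glands, ordered from the highest PKA over WT ratio of (CPM + 10), where CPM is a scaled count defined below, Fam25c was number 1, Ptn 3, AW112010 8, Glul 11 and Qsox1 13.

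The 4 groups were PKA tumor, WT tumor, PKA hyperplasia and WT hyperplasia, with 1 single-cell library each. All mice carried MMTV-PyMT, in which the mouse mammary tumor virus promoter drives the polyoma middle T oncogene in mammary epithelium. The genotype is labelled PKA activated or wild type, and how protein kinase A was activated, and in which cells, is not stated. Hyperplastic glands came from mice of 8 to 9 weeks. Tumors are labelled 16 to 20 weeks, whereas the series text gives 22 weeks. Glands went through collagenase A with hyaluronidase, a trypsin step and a dispase step, whereas minced tumors received collagenase with hyaluronidase, so stage and dissociation cannot be told apart. Cells were sorted by FACS with a gate that is not described, and whether mice were pooled is not stated. With 1 library per group no test was possible: the 95% intervals below are exact counting intervals, which compare these libraries and not the conditions.

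Protein kinase A is switched on when cyclic AMP releases its catalytic subunits from its regulatory subunits, and one of its best known targets is the transcription factor CREB, which binds cyclic AMP response elements. Mature luminal cells are the hormone-sensing cells of the mammary duct: they carry the receptors for oestrogen, progesterone and prolactin and pass hormonal signals on to neighbouring cells. Luminal progenitors form the milk-secreting lineage, and basal cells form the contractile outer layer. Fam25c encodes a small protein of the FAM25 family whose function is not established. Ptn encodes pleiotrophin, a secreted heparin-binding growth factor that signals through the receptor phosphatase Ptprz1, syndecans and Alk. Glul encodes glutamine synthetase, which joins ammonia to glutamate. AW112010 is annotated as a long intergenic non-coding RNA and is known in mouse immune cells as a transcript induced by interferon and bacterial stimuli. Qsox1 encodes quiescin sulfhydryl oxidase, which forms disulfide bonds in secreted proteins.

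In GRCm38 with the GENCODE M21 annotation, Fam25c lies on the minus strand at chr14:34351881-34355433 and Ptn on the minus strand at chr6:36714929-36810220. Glul lies on the plus strand at chr1:153899944-153909723, AW112010 on the minus strand at chr19:11047612-11055808 and Qsox1 on the minus strand at chr1:155776029-155812889. Glul overlaps Teddm2 on the opposite strand in 1 exon and Mir8114 on its own strand, and Qsox1 overlaps the unconfirmed gene Gm37539 on the opposite strand, so reads of these pairs could be split by the counting. All 5 genes had a promoter in the RefSeq table (GRCm38.p6), which spans 250 bases before to 50 bases after the transcript start. For AW112010 this window (chr19:11050517-11050816) lies inside the longer GENCODE gene, so the region of its GENCODE start was not searched. None of the 5 held the short cyclic AMP response element TGACG on either strand, nor the full element, in which TGACG is followed by TCA. Of 32851 promoters of the same length, 1.79% held the full element and 20.8% the shorter form, which the full element contains. None held the full oestrogen response element, which is GGTCA and TGACC spaced by 3 bases and was present in 0.0700% of promoters, or the gamma activated site, which is TTC and GAA spaced by 3 bases and was present in 8.30%. GGTCA, which the full oestrogen element contains, was in the promoters of Fam25c, Glul and AW112010, against 40.5% of all promoters (either strand). A TATAAA element, found in 13.6% of promoters, was present in Fam25c only, at position -29 from the RefSeq start. A match or its absence describes these letters in this window and says nothing on binding. For Fam25c and Ptn, the genes with the largest PKA over WT ratios over all cells of the hyperplastic glands, the upstream part of the RefSeq promoter is shown 5′ to 3′ on the minus strand (chr14:34355404-34355643 and chr6:36810191-36810429). It holds the first 240 bases of the window for Fam25c and the first 239 for Ptn, and stops before the RefSeq start, whereas motifs were searched in the whole window. The GENCODE start of both genes lies before the RefSeq start, so each sequence ends inside the GENCODE gene. The TATAAA of Fam25c lies in that last part. The sequences have GGTCA, its reverse complement TGACC and TATAAA in capitals.
Fam25c: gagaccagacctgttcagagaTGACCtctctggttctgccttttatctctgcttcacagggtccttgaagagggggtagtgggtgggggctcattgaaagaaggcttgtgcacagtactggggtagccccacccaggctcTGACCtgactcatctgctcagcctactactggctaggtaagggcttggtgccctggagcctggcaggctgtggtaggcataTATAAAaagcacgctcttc
Ptn: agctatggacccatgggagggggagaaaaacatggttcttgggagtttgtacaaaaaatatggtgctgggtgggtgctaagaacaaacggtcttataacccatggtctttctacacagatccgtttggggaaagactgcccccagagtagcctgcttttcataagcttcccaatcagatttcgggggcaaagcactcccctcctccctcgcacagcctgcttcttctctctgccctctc

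The libraries held 2638 annotated cells in PKA tumor, 5181 in WT tumor, 3818 in PKA hyperplasia and 3808 in WT hyperplasia, with 10648097 to 24499374 UMIs (unique molecular identifiers, each a counted RNA molecule) in all. The authors' Mature Luminal class held 177 cells of PKA tumor, 872 of WT tumor, 251 of PKA hyperplasia and 116 of WT hyperplasia, with medians of 8362, 5492, 3051 and 3177.5 UMIs per cell. The name fitted most of its markers. The prolactin receptor gene Prlr stood at 2661, 1738, 3695 and 2580 CPM in the 4 groups in that order. The basal markers Krt14 and Krt5 stood at no more than 39.8 CPM. All 10 mature luminal markers summed to 4910, 6314, 8141 and 7201 CPM in the same order. Among them Areg was at 0 in each library and Tnfsf11 at 0 in both tumor libraries. CPM is the summed UMI count of a gene relative to that of all genes in the same cells. Decorin (Dcn), a fibroblast matrix gene, moved with genotype in the Mature Luminal class, at 27.9 CPM in PKA tumor against 900 in WT tumor, and at 117 CPM in PKA hyperplasia against 599 in WT hyperplasia. All 6 fibroblast markers summed to 30.0, 901, 120 and 609 CPM in the class, most of it Dcn. Lum was at 0 in each library, Col1a2 and Col3a1 in all but WT hyperplasia, and Pdgfra in WT tumor and WT hyperplasia. The 8 luminal progenitor markers summed to 5025 CPM in Mature Luminal cells of PKA tumor against 2924 CPM in WT tumor. In hyperplasia they summed to 2756 CPM with PKA against 3139 CPM in WT. Only in PKA tumor was this sum above that of the mature luminal markers. The part of these markers in the results was not tested, but values without the cells that held a fibroblast marker are given below. The libraries shared between 16 and 24 cell barcodes in pairs, and none of these was Mature Luminal in both.

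Mature Luminal cells carried the highest level of each of the 5 genes in each library. Fam25c was nearly confined to them, at 790.3 CPM in PKA tumor, 503 in WT tumor, 2286 in PKA hyperplasia and 224 in WT hyperplasia, and at no more than 8.31 CPM in any other class of any library. The class held 97.4% of the Fam25c UMIs of PKA tumor, 96.7% of WT tumor, 96.5% of PKA hyperplasia and 81.9% of WT hyperplasia. Ptn stood at 68.4 CPM in Mature Luminal cells of PKA tumor, 193 CPM in WT tumor, 2896 CPM in PKA hyperplasia and 1075 CPM in WT hyperplasia. Both tumor levels were below both hyperplasia levels, and in hyperplasia the next highest class was Basal, at 121 CPM in PKA hyperplasia and 107 CPM in WT hyperplasia.

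Glul in Mature Luminal cells was highest in WT tumor. Its level was 675 CPM in PKA tumor, 1827 CPM in WT tumor, 1226 CPM in PKA hyperplasia and 443 CPM in WT hyperplasia. AW112010 stood at 1666 CPM in PKA tumor, 3928 CPM in WT tumor, 6222 CPM in PKA hyperplasia and 2166 CPM in WT hyperplasia. Qsox1 was the broadest of the 5 genes. It stood at 570 CPM in Mature Luminal cells of PKA tumor, 644 CPM in WT tumor, 919 CPM in PKA hyperplasia and 318 CPM in WT hyperplasia, and the class held only 23.3%, 59.8%, 16.8% and 6.85% of the Qsox1 UMIs of these libraries in that order. Luminal Progenitor 1 cells, the most numerous class, held most Qsox1 UMIs in PKA tumor (69.2%) and in both hyperplasia libraries (70.0% in each). For each gene the exact 95% Poisson intervals of the 4 Mature Luminal levels did not overlap. The closest pair was Qsox1 in PKA tumor (532 to 611 CPM) and WT tumor (621 to 667 CPM). The description of the 5 genes as mostly Mature Luminal therefore does not hold for Qsox1 except in WT tumor (59.8% of UMIs). In WT hyperplasia it does not hold for Glul (42.2% of UMIs) or AW112010 (44.6%) either.

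**Figure D1:**
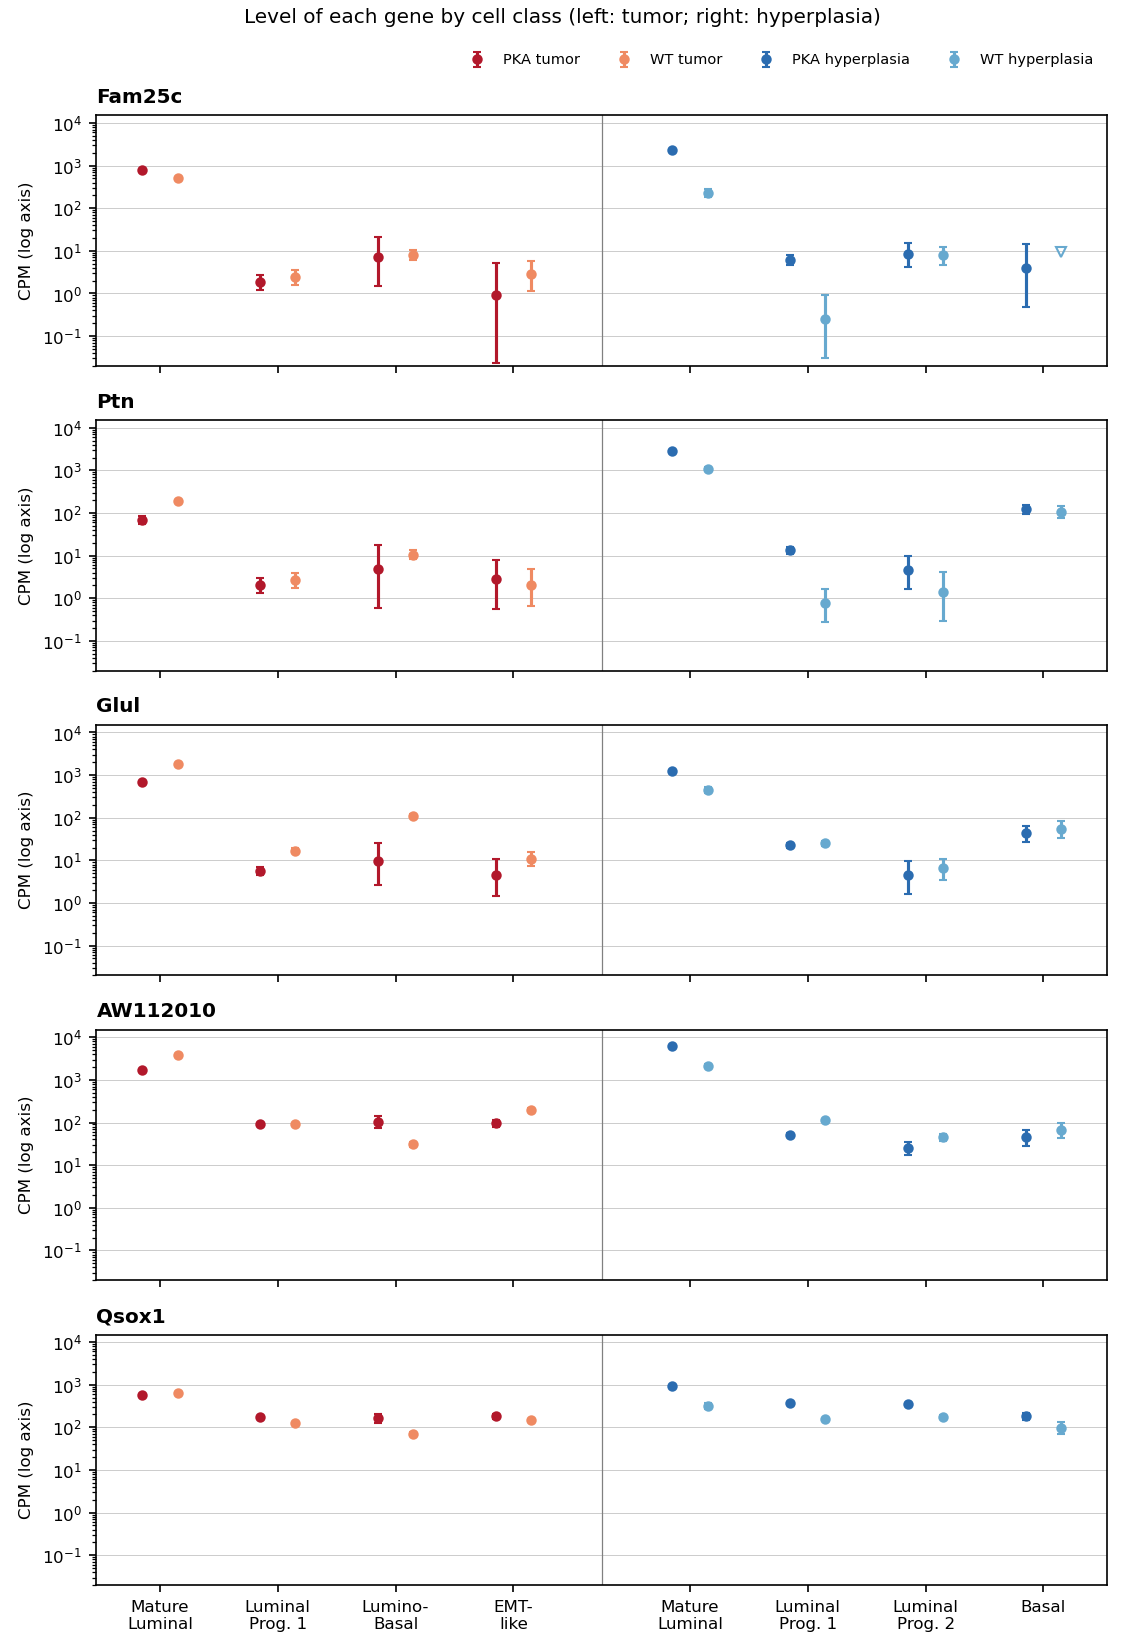
Level of each gene in CPM (log axis) by cell class, with PKA left of WT within each class, tumor on the left and hyperplasia on the right. Points are summed UMIs of 1 library, bars are exact 95% Poisson intervals, and the open triangle marks the upper limit for 0 UMIs (Fam25c in Basal cells of WT hyperplasia). Fam25c is above 200 CPM only in Mature Luminal cells, whereas Qsox1 is between 69.6 and 919 CPM in every class.

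The question put to the hyperplastic glands was how much of the higher level with PKA came from more Mature Luminal RNA and how much from more of each transcript within a class. Over all annotated cells all 5 genes were past 2-fold higher in PKA hyperplasia, against 1.09% of the 1740 genes of at least 100 CPM in either library. The count was 4 as a mean of single-cell CPM and 4 without the 5 highest cells of each library, since Glul then stood below 100 CPM in both libraries (98.5 and 93.8 CPM in PKA hyperplasia) at log2 ratios of 1.50. This share was part of the choice and supports nothing. A gene counted as past 2-fold when (CPM + 10) differed by at least that factor. Fam25c stood at 169 CPM in PKA hyperplasia against 9.72 CPM in WT hyperplasia, Ptn at 223 against 43.1 CPM, Glul at 107 against 37.3 CPM, AW112010 at 488 against 173 CPM and Qsox1 at 392 against 165 CPM. Mature Luminal cells made up 7.14% of the UMIs of PKA hyperplasia against 3.56% of those of WT hyperplasia.

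Each log2 ratio over all cells was split into a level part (class levels swapped between libraries, class shares of RNA held) and a share part (the reverse), averaged over both orders of swapping. Of the log2 ratio of 4.12 for Fam25c, 3.24 was level and 0.88 was share. For Ptn, a log2 ratio of 2.38 divided into a level part of 1.45 and a share part of 0.93. For Glul, the log2 ratio of 1.52 held 0.87 of level and 0.66 of share, and for AW112010 the log2 ratio of 1.50 held 0.79 of level and 0.71 of share. For Qsox1 nearly the whole log2 ratio of 1.25 was level, with 1.20 against a share part of 0.05. The share part, which swaps the shares of all classes together, came to 1.58- to 1.90-fold for Fam25c, Ptn, Glul and AW112010 and to 1.04-fold for Qsox1. Beside the Mature Luminal share, that of Luminal Progenitor 2 cells was 12.4% of UMIs in PKA hyperplasia against 20.0% in WT hyperplasia. Of the difference in Qsox1, 23.9% lay in Mature Luminal cells, against 93.5% for Ptn and 97.4% for Fam25c. For Glul this was 103% and for AW112010 117%, so the other classes together went the other way. The level part of AW112010 joins log2 ratios of 1.52 in Mature Luminal and -1.20 in Luminal Progenitor 1 cells. It depended on the class shares held, at 0.62 with those of WT and 0.96 with those of PKA hyperplasia. For Glul these values were 0.75 and 0.99.

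**Figure D2:**
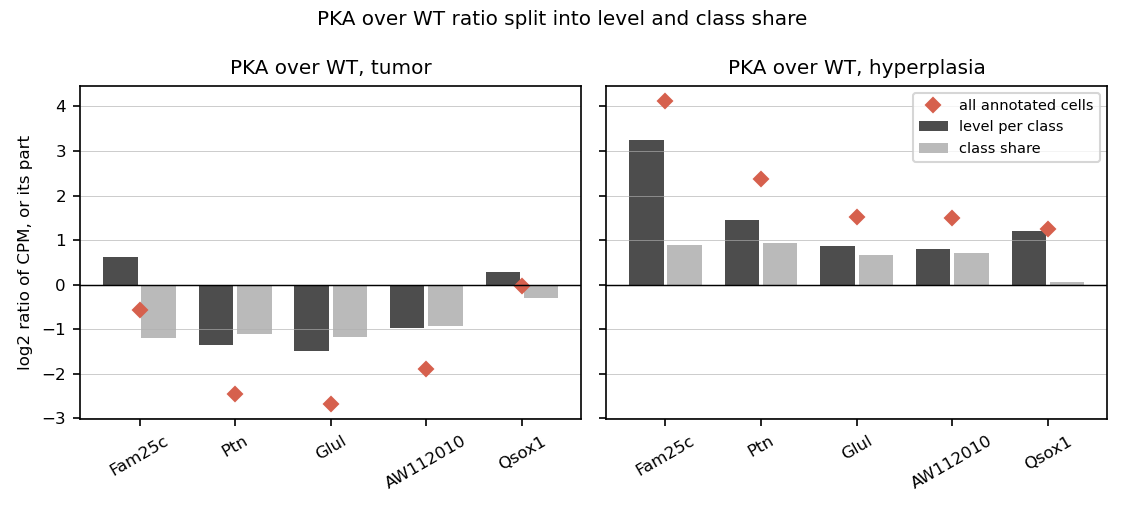
PKA over WT log2 ratio of each gene over all annotated cells (diamonds) and its split into a level part per class (dark bars) and a class share part (light bars), for tumor on the left and hyperplasia on the right. In hyperplasia both parts are above 0 for each gene, and in tumor the share part is below 0 for each gene while the level part is above 0 for Fam25c (0.62) and Qsox1 (0.28).

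Within Mature Luminal cells of the hyperplastic glands, all 5 genes were also past 2-fold higher with PKA, against 4.44% of 1961 genes in this direction. The choice used the same libraries and genes seen mostly in this class, so this count too supports nothing. Fam25c was 10.2-fold higher in PKA hyperplasia (log2 ratio 3.35, 95% interval 3.04 to 3.68). The other 4 lay close together, at 2.69-fold for Ptn, 2.77-fold for Glul, 2.87-fold for AW112010 and 2.90-fold for Qsox1, with overlapping intervals of 1.28 to 1.58, 1.23 to 1.71, 1.42 to 1.63 and 1.25 to 1.82 on the log2 scale. In WT hyperplasia a few cells carried much of the signal: the 5 highest cells held 44.2% of the Fam25c UMIs of the class, 39.5% of those of Ptn and 35.9% of those of AW112010, against 9.15%, 11.4% and 10.3% in PKA hyperplasia. Those 5 cells were a larger part of the class in WT hyperplasia (116 cells) than in PKA hyperplasia (251 cells), so leaving them out takes away more of the WT signal. Without the 5 highest cells of each library Fam25c stood at 2147 CPM in PKA hyperplasia against 132 CPM in WT hyperplasia, a log2 ratio of 4.03. Without the cells that held a fibroblast marker, an alternative chosen after seeing the data, the log2 ratios were 3.09 for Fam25c, 1.88 for Ptn, 1.39 for Glul, 1.40 for AW112010 and 1.48 for Qsox1.

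The levels in single cells lay in the same direction. The median Mature Luminal cell held 1769 CPM of Fam25c in PKA hyperplasia and 0 in WT hyperplasia. For Ptn these medians were 1588 and 75.6 CPM, for Glul 684 and 290 CPM, for AW112010 4224 and 922 CPM, and for Qsox1 786 and 228 CPM. The middle ranges of Fam25c did not overlap: the lower quartile of PKA hyperplasia was 755 CPM, and the upper quartile of WT hyperplasia was 226 CPM. In tumors the Fam25c medians were 474 CPM with PKA and 362 CPM in WT, and the Ptn median was 0 in both.

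**Figure D3:**
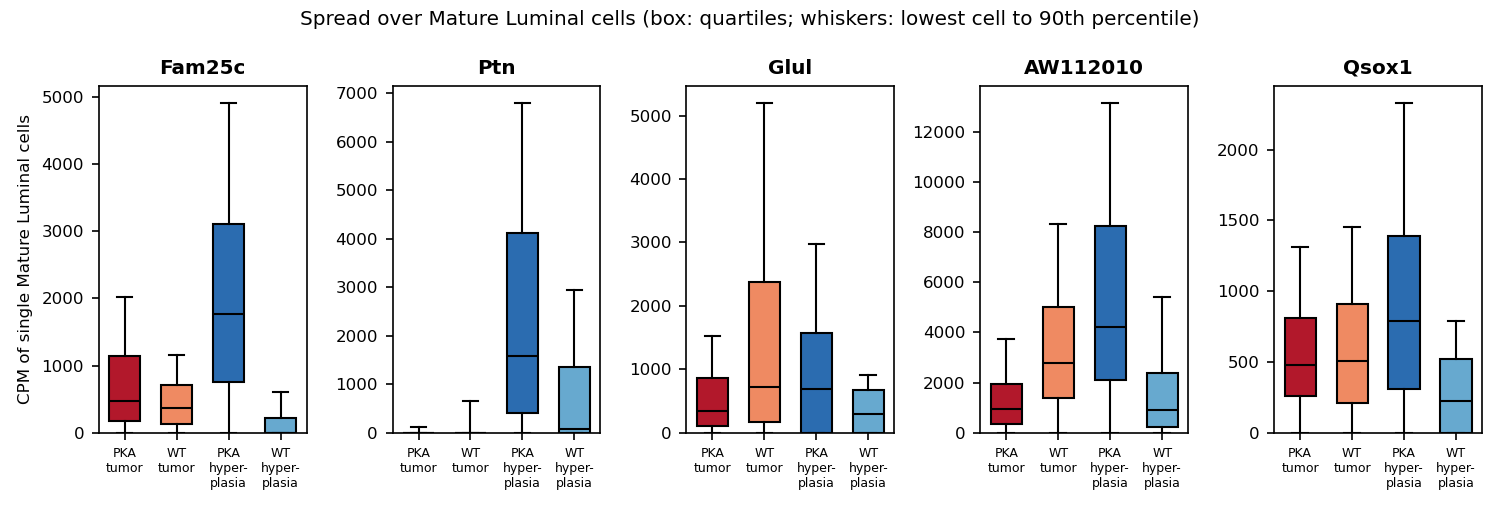
CPM of single Mature Luminal cells for each gene in PKA tumor, WT tumor, PKA hyperplasia and WT hyperplasia, on a separate linear axis per gene. Boxes are quartiles with the median as a line, and whiskers run from the lowest cell to the 90th percentile. PKA hyperplasia has the highest median of Fam25c (1769 CPM), Ptn (1588 CPM), AW112010 (4224 CPM) and Qsox1 (786 CPM), and WT tumor that of Glul (727 CPM).

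For shares of cells with a UMI at equal depth, 2000 UMIs were drawn from every cell that had as many. This kept 172 Mature Luminal cells of PKA tumor, 845 of WT tumor, 174 of PKA hyperplasia and 88 of WT hyperplasia, leaving out 5, 27, 77 and 28. Fam25c was then detected in 63.4% (exact 95% interval 55.7 to 70.6) of PKA tumor cells, 53.7% (50.3 to 57.1) of WT tumor cells, 88.5% (82.8 to 92.8) of PKA hyperplasia cells and 21.6% (13.5 to 31.6) of WT hyperplasia cells. The unthinned shares were 83.1%, 77.3%, 88.0% and 31.0%. For each of the genes, the choice favoured a higher share in PKA hyperplasia than in WT hyperplasia. In Luminal Progenitor 1 cells, with medians of 5970, 4143, 2588 and 2690 UMIs, the thinned share was 0.350% in PKA tumor, 0.456% in WT tumor, 1.42% in PKA hyperplasia and 0.0957% in WT hyperplasia.

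Ptn was detected in 5.23% (2.42 to 9.70) of thinned Mature Luminal cells of PKA tumor, 14.6% (12.2 to 17.1) of WT tumor, 80.5% (73.8 to 86.1) of PKA hyperplasia and 45.5% (34.8 to 56.4) of WT hyperplasia. Glul was detected in 54.7%, 65.1%, 68.4% and 47.7% of these cells, AW112010 in 76.7%, 93.4%, 97.1% and 79.5%, and Qsox1 in 65.7%, 60.9%, 74.1% and 45.5%, in the same order of libraries. The Ptn shares of both tumor libraries lay below those of both hyperplasia libraries without overlap of the intervals. Among the positive cells the thinned Ptn count was also lower in tumor, at 2.44 UMIs per cell in PKA tumor and 2.47 in WT tumor, against 7.80 in PKA hyperplasia and 4.78 in WT hyperplasia.

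Detection of 4 of these genes in 1 cell was most frequent in PKA hyperplasia. Of its 174 thinned Mature Luminal cells, 94 (54.0%) held at least 1 UMI of each of Fam25c, Ptn, Glul and AW112010, against 4 of 88 (4.55%) in WT hyperplasia. In tumor this was seen in 4 of 172 cells (2.33%) with PKA and in 62 of 845 (7.34%) in WT. The choice of genes favoured higher single-gene shares in PKA hyperplasia than in WT hyperplasia, so the difference between these 2 libraries supports nothing. Each single-gene share bears on the count of cells with all 4 genes, and the low Ptn share sets its ceiling in tumor. Whether the genes met in 1 cell more often than their single shares give was not tested. The rank correlation of the thinned counts across PKA hyperplasia cells was 0.34 for Ptn with Glul and near 0 (-0.00046) for Fam25c with Ptn, over the same 174 cells of 1 library.

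**Figure D4:**
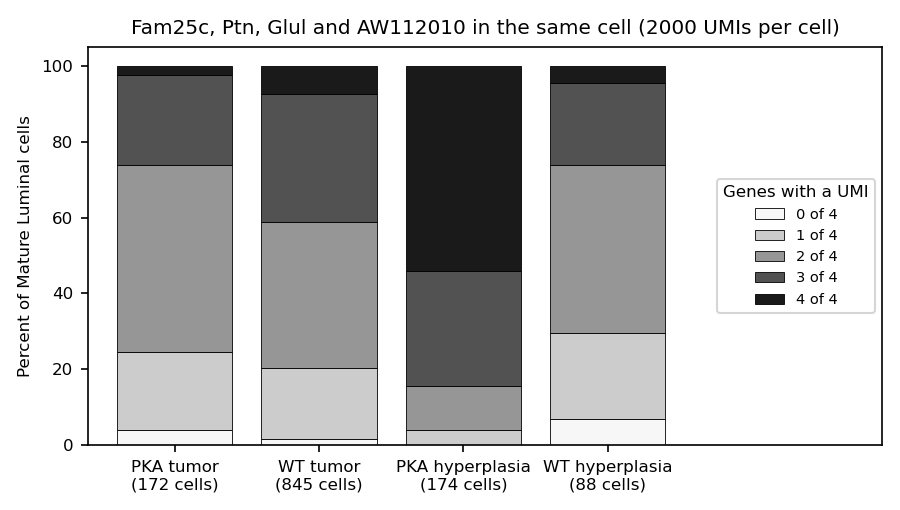
Percent of Mature Luminal cells, thinned to 2000 UMIs, with a UMI of 0 to 4 of the genes Fam25c, Ptn, Glul and AW112010, in the libraries PKA tumor, WT tumor, PKA hyperplasia and WT hyperplasia. Cells with all 4 genes are 54.0% in PKA hyperplasia and 2.33% to 7.34% in the other libraries. The choice of genes favoured PKA hyperplasia over WT hyperplasia.

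In the tumors the picture over all annotated cells was different. Glul stood at 63.0 CPM in PKA tumor against 403 CPM in WT tumor (log2 ratio -2.68, 95% interval -2.77 to -2.59), and AW112010 at 228 CPM in PKA tumor against 851 CPM in WT tumor (log2 ratio -1.90, interval -1.95 to -1.85). These 2 were past 2-fold lower with PKA, against 3.56% of the 1992 genes compared in this direction. The median log2 ratio of the compared genes was -0.15. The genes were chosen as mostly Mature Luminal, so the share of that class, given below, bears on this count. Of the 3 mature luminal markers compared over all tumor cells, 2 were also past 2-fold lower with PKA and 0 higher. Ptn stood at 7.82 CPM in PKA tumor against 42.7 CPM in WT tumor (log2 ratio -2.45, interval -2.72 to -2.19), below the 100 CPM needed to be counted. Fam25c was at 69.3 CPM in PKA tumor against 104 CPM in WT tumor (log2 ratio -0.58, interval -0.68 to -0.48). Qsox1 was at 209.5 CPM in PKA tumor against 214 CPM in WT tumor, with a log2 ratio of -0.03 and an interval that includes 0 (-0.09 to 0.03).

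The Mature Luminal share of RNA was 8.55% in PKA tumor against 19.9% in WT tumor, the other way round from hyperplasia. The share part was accordingly below 0 for each gene, at -1.20 for Fam25c, -1.10 for Ptn, -1.18 for Glul, -0.92 for AW112010 and -0.31 for Qsox1. The level part was below 0 for Ptn (-1.35), Glul (-1.49) and AW112010 (-0.98) and above 0 for Fam25c (0.62) and Qsox1 (0.28). Fam25c thus had a level part above 0 and a ratio over all tumor cells below 0. The sorting gate is not described, so class shares are those of the sorted cells.

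Within Mature Luminal cells of the tumors, Ptn, Glul and AW112010 were past 2-fold lower with PKA, against 2.23% of 2103 genes in this direction. The log2 ratios were -1.50 for Ptn (interval -1.81 to -1.20), -1.44 for Glul (-1.53 to -1.34) and -1.24 for AW112010 (-1.30 to -1.18). Fam25c was 1.57-fold higher in PKA tumor (log2 ratio 0.65, interval 0.55 to 0.75), and Qsox1 stood at 570 CPM against 644 CPM (log2 ratio -0.17, interval -0.29 to -0.06). Ptn in PKA tumor rested on few cells: 62.2% of its 98 UMIs in the class were in 5 cells. Without the 5 highest cells of each library Ptn was at 26.9 CPM in PKA tumor against 172 CPM in WT tumor, a log2 ratio of -2.68, and without cells that held a fibroblast marker the log2 ratio was -2.19. The class held 177 cells in PKA tumor and 872 in WT tumor, so 5 cells are a larger part of it with PKA.

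Set beside hyperplasia, the PKA over WT ratio in Mature Luminal cells had the opposite sign in tumor for Ptn, Glul, AW112010 and Qsox1, and the same sign for Fam25c at a smaller size (1.57-fold against 10.2-fold). The choice of genes favoured the sign in hyperplasia. With 1 library per group the difference between the stages was not tested.

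**Figure D5:**
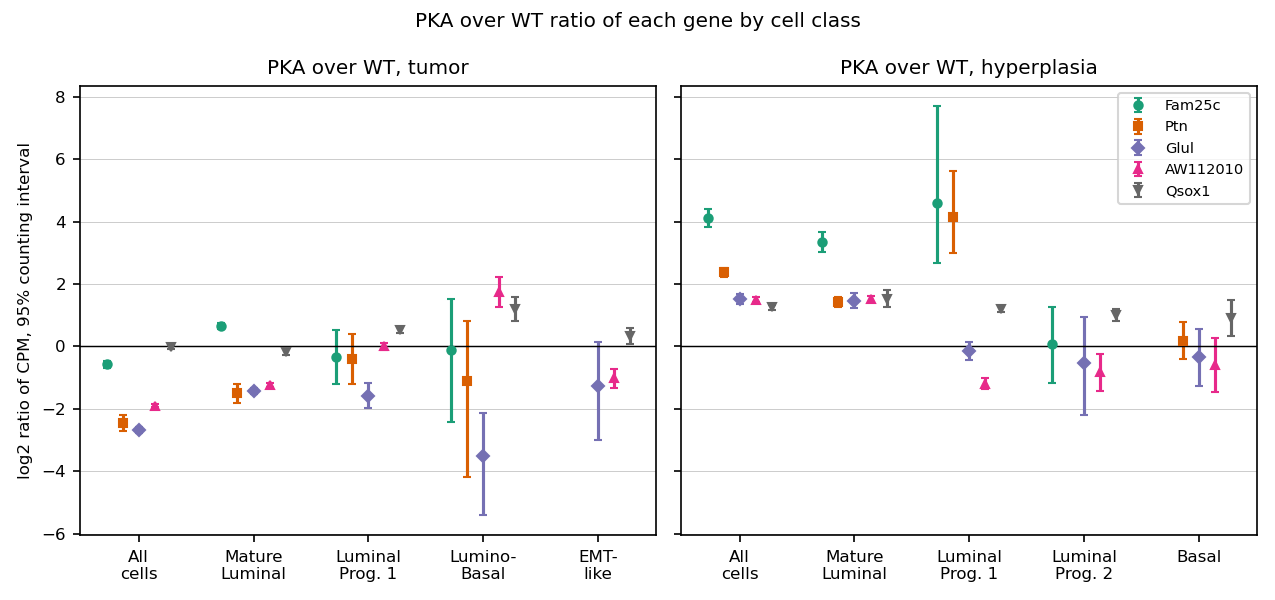
PKA over WT log2 ratio of CPM by cell class in tumor (left) and hyperplasia (right), with exact 95% counting intervals, for pairs whose UMIs sum to 20 or more. In Mature Luminal cells the 5 genes are between 1.43 and 3.35 in hyperplasia, and in tumor Ptn, Glul and AW112010 are between -1.50 and -1.24.

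Compared across stages within the same genotype, Mature Luminal cells of PKA tumor had less of each gene than those of PKA hyperplasia. The genes were chosen for a high level in PKA hyperplasia relative to WT hyperplasia, which favours lower values in PKA tumor and higher values in WT tumor, so these counts support nothing. Ptn was the lowest of all 2146 genes compared there, with a log2 ratio of -5.40 (interval -5.71 to -5.11). Fam25c (-1.53) and AW112010 (-1.90) were also past 2-fold lower, which makes 3 of the 5, against 5.87% of genes in this direction. Glul (-0.86) and Qsox1 (-0.69) were lower by less. In WT Mature Luminal cells Glul (log2 ratio 2.05, interval 1.83 to 2.27) and Fam25c (1.17, interval 0.86 to 1.50) were past 2-fold higher in tumor than in hyperplasia, against 15.4% of 2237 genes. Ptn was past 2-fold lower in WT tumor (-2.48, interval -2.64 to -2.31), against 13.1% of genes. AW112010 (0.86) and Qsox1 (1.02) were higher in WT tumor than in WT hyperplasia but not past 2-fold in (CPM + 10). In Luminal Progenitor 1 cells Qsox1 was past 2-fold lower in PKA tumor than in PKA hyperplasia (log2 ratio -1.05), against 11% of 1975 genes in this direction, but not as a mean of single-cell CPM, where the count was 0. Within the Mature Luminal class, Ptn alone of the 5 was past 2-fold in the same direction, lower in tumor, in both genotypes.

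Outside the Mature Luminal class the genes differed in direction. In Luminal Progenitor 1 cells of the hyperplastic glands Fam25c had 50 UMIs with PKA against 2 in WT (log2 ratio 4.61, interval 2.68 to 7.69), and Ptn had 109 against 6 (4.15, interval 2.98 to 5.62), with levels of at most 13.5 CPM. Qsox1 was higher with PKA in each other class of the hyperplastic glands, at 363 CPM in PKA against 159 CPM in WT in Luminal Progenitor 1 cells, 347 against 173 CPM in Luminal Progenitor 2 cells and 181 against 97.0 CPM in Basal cells. The intervals of these log2 ratios were 1.10 to 1.29, 0.80 to 1.21 and 0.35 to 1.48. AW112010 went the other way, at 50.4 CPM in PKA against 116 CPM in WT in Luminal Progenitor 1 cells (log2 ratio -1.20, interval -1.37 to -1.03) and at 25.7 CPM against 44.9 CPM in Luminal Progenitor 2 cells (interval -1.42 to -0.23). In Luminal Progenitor 1 cells, Qsox1 was thus past 2-fold higher, against 0.866% of 1732 genes, and AW112010 past 2-fold lower, against 1.44%. The choice of genes favours the higher value of Qsox1, since this class held most of its UMIs. Glul did not differ there beyond its counting interval (22.6 CPM with PKA, 25.1 CPM in WT, interval -0.45 to 0.15).

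Free RNA of Mature Luminal cells can add UMIs to other cells, so each level outside the class was set as a percentage of the Mature Luminal level of its library, beside the same percentage for the markers Pgr, Prlr, Foxa1, Gpx3, Esr1 and Cited1. In Luminal Progenitor 1 cells of PKA hyperplasia the markers spanned 0.265% to 2.94%. Fam25c at 0.272%, Ptn at 0.467%, AW112010 at 0.810% and Glul at 1.84% lay within that span. No free RNA was measured, and whether these levels are stray RNA was not tested. In Luminal Progenitor 1 cells of WT hyperplasia the highest marker, Esr1, stood at 4.65% (interval 2.92 to 7.40), which overlapped AW112010 at 5.34% (4.86 to 5.88) and Glul at 5.67% (lower bound 4.59). Qsox1, at 39.5% in PKA hyperplasia and higher still in WT hyperplasia, was far above them.

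Ptn in Basal cells stood at 4.17% of the Mature Luminal level in PKA hyperplasia, with an interval of 3.19 to 5.37 that overlapped that of the highest marker, Gpx3 (3.57%, 2.42 to 5.10). In WT hyperplasia it stood at 9.95% (7.09 to 13.6), also overlapping the highest marker, Esr1 (6.99%, 1.38 to 21.9, from 3 UMIs). The Basal class also held fibroblast markers, which summed to 807 CPM in PKA hyperplasia and 1639 CPM in WT hyperplasia. Basal cells without a UMI of these markers had 110 CPM of Ptn in PKA hyperplasia (interval 79.8 to 147) and 67.6 CPM in WT hyperplasia (40.0 to 107). Basal cells with such a UMI had 160 CPM (94.8 to 253) in PKA hyperplasia and 184 CPM (119 to 272) in WT hyperplasia.

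Glul in Lumino-Basal cells, a tumor class that the authors marked by Krt14, Krt8 and Cd14, stood at 9.76 CPM in PKA tumor against 111 CPM in WT tumor (log2 ratio -3.51, interval -5.39 to -2.15). The WT level was 6.10% of the Mature Luminal level, above the highest marker there (1.59%), and Glul was detected in 27.9% of the 1198 cells. It was 118 CPM in the 1017 cells without a UMI of Pgr, Prlr, Foxa1 or Esr1 and 81.7 CPM in the 181 cells with one. PKA tumor held 66 Lumino-Basal cells with 4 Glul UMIs in all. Fibroblast markers summed to 737 CPM in Lumino-Basal cells of PKA tumor against 117 CPM in WT tumor. Luminal progenitor markers summed to 11582 CPM in PKA tumor against 36772 CPM in WT tumor, with 4 of 8 past 2-fold lower and 1 higher, and immune markers to 2.44 CPM against 121 CPM. The part of these markers was not tested. AW112010 (105 CPM in PKA tumor, 31.0 CPM in WT tumor) and Qsox1 (161 CPM in PKA tumor, 69.6 CPM in WT tumor) were past 2-fold higher with PKA in that class, against 10.3% of 2347 genes, and Glul was past 2-fold lower, against 10.4%. In EMT-like cells AW112010 stood at 96.9 CPM in PKA tumor against 196 CPM in WT tumor, not past 2-fold in (CPM + 10). Ptn in Luminal Progenitor 1 cells of PKA tumor rested on 1 cell, which held 23 of 28 UMIs.

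Lists of genes from the pathways of these genes were followed in Mature Luminal cells. Of the list of pleiotrophin relatives and receptors, 4 of 12 genes reached 100 CPM in the hyperplastic glands, of which 0 were past 2-fold higher with PKA and 1 was lower, against 4.39% of all genes compared. That gene was Mdk, which encodes midkine, the closest relative of pleiotrophin, at 30.3 CPM in PKA hyperplasia against 278.5 CPM in WT hyperplasia. In tumor Mdk stood at 112 CPM with PKA against 17.4 CPM in WT. Mdk thus differed in the direction opposite to Ptn at each stage. The syndecan gene Sdc1, a pleiotrophin receptor, stood at 114 CPM in PKA hyperplasia against 128 CPM in WT hyperplasia and at 616 CPM in PKA tumor against 297 CPM in WT tumor. In tumor 2 of the 3 counted genes of the list, Mdk and Sdc1, were past 2-fold higher, against 4.66% of all genes compared.

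Of the glutamine and glutamate list, 4 of 23 genes were counted in Mature Luminal cells of the hyperplastic glands and 5 in those of the tumors, and 0 were past 2-fold in either direction at either stage. The median log2 ratio of (CPM + 10) was -0.35 in hyperplasia and 0.10 in tumor, against -0.08 and -0.05 over all genes compared. Slc38a2, a glutamine transporter gene, stood at 284 CPM in PKA hyperplasia against 341 CPM in WT hyperplasia and at 276 CPM in PKA tumor against 268 CPM in WT tumor. Of the interferon list, 5 of 28 genes were counted in hyperplasia with 0 past 2-fold (median -0.17), and 7 in tumor with 1 lower (median -0.28), against 2.23% of all genes compared. With a minimum of 50 CPM both medians were above 0, at 0.11 in hyperplasia and 0.17 in tumor. The lower gene was Psmb8, an immunoproteasome subunit, at 543 CPM in PKA tumor against 1115 CPM in WT tumor. In hyperplasia Psmb8 stood at 471 CPM with PKA against 357 CPM in WT.

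Of the oxidative folding list, 6 of 18 genes were counted in Mature Luminal cells of the hyperplastic glands (median -0.33) and 7 in those of the tumors (median -0.59), with 0 past 2-fold at either stage. P4hb, which encodes protein disulfide isomerase, stood at 383 CPM in both hyperplasia libraries, and at 202 CPM in PKA tumor against 359 CPM in WT tumor. Of the list of CREB targets, 2 of 12 genes with a row were counted in hyperplasia, with 1 past 2-fold lower with PKA, against 4.39% of all genes compared. At 50 CPM 5 were counted, with 1 higher and 1 lower. The lower gene at 100 CPM was Rgs2, a regulator of G protein signalling, at 65.8 CPM in PKA hyperplasia against 648 CPM in WT hyperplasia. In tumor 4 were counted and 0 were past 2-fold, with Nr4a1, an immediate early nuclear receptor, at 297 CPM in PKA tumor against 176 CPM in WT tumor.

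Across the 16 class by library units of at least 50 cells, the genes most like each member in log2(CPM + 10) were found among 3369 genes by Pearson correlation, as a description, since units of 1 library share its depth. Fam25c was most like Ctse, the gene of the protease cathepsin E, Cd164, Abcc3, Tmem56 and Ccdc162, with correlations from 0.98 to 0.99. AW112010 was most like Tcea3, the oestrogen receptor gene Esr1, Abcc3, the progesterone receptor gene Pgr and Ctse (0.96 to 0.97). Ptn was most like Vwf, Samd5, the transcription factor gene Tbx3, Fam43a and Gclc (0.93 to 0.95), and Glul like Ubxn1, Clip4, Alcam, Rasgrf1 and Tspan9 (0.95). Qsox1 was less like any gene, with Mgst3, Wnk1, Cab39l, Mtus1 and Upk2 at 0.86 to 0.89. Between members the highest correlation was 0.93, for Fam25c with AW112010, and the lowest 0.61, for Ptn with Qsox1.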

How the data were processed

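Single-cell libraries of 4 groups (1 each) were used, with groups from the sample titles. Per the submitters' processing notes, the tools were STAR 2.5.3a, Cell Ranger and Subread 1.6.0 (featureCounts), and the genome was GRCm38/mm10. Neither the annotation release nor the strand setting is given in the sources used here, so overlapping genes may share reads. The authors deposited raw UMI counts per gene and barcode, and per-cell tables with counts of UMIs and genes, the mitochondrial fraction as deposited, and a cell class assigned with Monocle2 from marker genes, per the series design. The per-cell totals equalled the sums of the count tables. Of 4858 to 5179 barcodes in the hyperplasia libraries and 2934 to 5800 in the tumor libraries, those without a class (1040 and 1371, 296 and 619) were left out. The filter behind this is not stated. Doublets were not called or removed here.

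UMIs were summed by library and class, and divided by the class total to give CPM with exact Poisson 95% intervals. Log2 ratios carry exact conditional binomial intervals and shares of cells Clopper-Pearson intervals, which cover counting error only. Genes of at least 100 CPM in either library were compared, and a gene past 2-fold in (CPM + 10) was counted as called. The design allows no significance test. The 5 genes and the 12 gene lists were chosen with earlier results of these data known. Other genes named are list members, class markers and, for each of the 5 genes, the 5 most correlated genes, leaving out mitochondrial, ribosomal protein, haemoglobin, predicted and Y-linked genes and Xist. On simulated counts with 200 genes changed by a fold of 2, intervals lay on the true side of 0 for 97% of changed genes in PKA over WT hyperplasia within Mature Luminal cells (1699 genes) and covered the truth for 96.1% of genes. These counts were Poisson draws, which the intervals assume, without added spread between cells or libraries. They check the calculation only and do not show how the intervals perform on the real counts. R 4.3.3 with edgeR 4.0.16 gave the TMM factors, and the rest came from Python 3.11.15 with pandas 2.3.3, SciPy 1.17.1, NumPy 2.4.6 and matplotlib 3.10.9. Alternatives were other scalings, cell filters and thresholds.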

Additional observations from a re-analysis of the deposited data

Results flagged for a closer look

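Several genes had PKA over WT log2 ratios of opposite sign at the 2 stages, with counting intervals on opposite sides of 0. The genes were chosen for a ratio above 0 in hyperplasia over all cells, so the sign at that stage was set or favoured by the choice. The difference between stages was not tested, since each group is 1 library. Over all annotated cells, the ratio in tumor was -0.58 for Fam25c, -2.45 for Ptn, -2.68 for Glul and -1.90 for AW112010, against 4.12, 2.38, 1.52 and 1.50 in hyperplasia. Within Mature Luminal cells it was -1.50 for Ptn in tumor against 1.43 in hyperplasia, -1.44 against 1.47 for Glul, -1.24 against 1.52 for AW112010, and -0.17 against 1.53 for Qsox1.

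The barcodes that the authors left without a class also held these genes, at higher levels in PKA hyperplasia than in WT hyperplasia. Fam25c stood at 162 CPM in PKA hyperplasia against 19.4 CPM in WT hyperplasia, Ptn at 113 against 28.4 CPM and Glul at 72.6 against 19.4 CPM. AW112010 stood at 622 CPM in PKA hyperplasia against 91.5 CPM in WT hyperplasia, and Qsox1 at 404 CPM against 183 CPM. Single barcodes of PKA hyperplasia held 254 of 737 UMIs of AW112010, 55 of 192 of Fam25c and 50 of 134 of Ptn.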

How the results depend on the processing

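No paired analysis was possible because each group is 1 library. For the 5 genes in the 4 PKA over WT comparisons (all cells and Mature Luminal cells at each stage), 159 of 160 alternative values kept the sign of the log2 ratio. The exception was Qsox1 over all tumor cells, at 0.03 as a mean of single-cell CPM against -0.03. In 4 of the 160 the ratio moved by over 1.5 times: Fam25c in Mature Luminal hyperplasia cells (4.03) and Ptn in tumor over all cells (-3.51) and in Mature Luminal cells (-2.68) without the 5 highest cells per library, and Ptn in Mature Luminal tumor cells without fibroblast-marker cells (-2.19, chosen after seeing the data). Leaving out 5 cells takes a larger part of the library or class with fewer cells. The cause was not tested. TMM factors moved log2 ratios in Mature Luminal cells by 0.13 in hyperplasia and by -0.19 in tumor. With them, 4 genes rather than 2 were past 2-fold higher in WT tumor over WT hyperplasia in Mature Luminal cells. The count of genes past 2-fold lower in PKA tumor over PKA hyperplasia in Luminal Progenitor 1 cells was 1, and 0 as a mean of single-cell CPM. With equal class weights the level part in hyperplasia was 1.41 for AW112010 and 1.29 for Glul. A minimum of 50 CPM admits more genes and gave these counts past 2-fold. PKA over WT gave 791 (486 at 100 CPM) in Lumino-Basal and 275 (172) in EMT-like tumor cells, and 287 (173) in Mature Luminal and 147 (80) in Basal hyperplasia cells. Tumor over hyperplasia gave, with PKA, 681 (430) over all cells, 739 (457) in Luminal Progenitor 1 and 692 (405) in Mature Luminal cells, and in WT 921 (587), 953 (620) and 1055 (636). Leaving out a library was not possible with 1 per group.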

Other observations

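The genes that define hormone-sensing cells were followed as a list in the Mature Luminal class. In the hyperplastic glands 9 of its 10 listed genes were counted, with 1 past 2-fold higher and 1 lower, against 4.44% and 4.39% of all genes compared, and a median log2 ratio of 0.14 against -0.08 over all genes compared. The higher gene was Prom1, the gene of the membrane protein CD133, at 253 CPM in PKA hyperplasia against 62.5 CPM in WT hyperplasia. The lower gene was Tnfsf11, which encodes the progesterone-induced paracrine signal RANKL, at 1.32 CPM (1 UMI) in PKA hyperplasia against 138 CPM (53 UMIs) in WT hyperplasia, with a 95% interval of the log2 ratio from -12.0 to -4.17. The receptor gene Pgr stood at 129 CPM in PKA hyperplasia against 133 CPM in WT hyperplasia, and Esr1 at 118 CPM against 107 CPM. In tumors 7 were counted with 2 past 2-fold lower, against 2.23% of all genes compared. These were Gpx3, a secreted glutathione peroxidase gene, at 478 CPM in PKA tumor against 1923 CPM in WT tumor, and Cited1, a transcriptional co-regulator gene, at 716 CPM in PKA tumor against 1559 CPM in WT tumor.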
